A study of Mus musculus with 4 samples.

Results

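The 10 genes Mrc1, Folr2, Cd163, Clec10a, Mgl2, Il4ra, Klf4, Il10, Arg1 and Retnla, commonly used as markers of alternatively activated macrophages, were followed in mouse bone marrow mesenchymal stem cells (mBMSCs) after depletion of Zbp1. All 10 had a row in the table of 24346 genes. They were chosen by name, with the large difference of Mrc1 between the groups already known, so their differences are given as a description and without a test. Gene expression was measured by RNA-seq in 4 samples, 2 transfected with scrambled siRNA (siScr) and 2 transfected with siRNA targeting Zbp1 (siZBP1). Every sample came from primary femoral marrow cells of 3-month-old wild-type C57BL/6J mice, was transfected with Lipofectamine RNAiMAX and was harvested 72 h later. Cells that did not adhere were washed away after plating and no sort is described, so each value is the mean over whatever cells adhered. The methods describe duplicated cells, and nothing states that the duplicates came from separate animals or cultures, so the p-values below measure only the spread between these samples, which may be technical.

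Macrophages take on the alternative state when IL-4 or IL-13 binds a receptor that contains the IL-4 receptor alpha chain (Il4ra), Janus kinases phosphorylate STAT6, and STAT6 with partners such as KLF4 switches on genes for endocytic receptors, lectins, arginase and secreted proteins. IL-10, made by macrophages themselves, acts through its own receptor and STAT3 and drives an overlapping set of genes. In bone, such macrophages lie beside stromal cells and osteoblasts and clear dead cells and matrix, and macrophages of the marrow adhere to plastic together with stromal cells.

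Sequence was available upstream of 7 of the 10 genes (not for Arg1, Clec10a or Il10) as promoters from 250 bases before to 50 bases after the gene start in RefSeq (GRCm38.p6). Both strands were searched for 4 motifs. The STAT6 motif, TTC and GAA with any 4 bases between them, was present in 8.01% of 27025 promoters and, among the members, in that of Retnla alone. The related STAT motif TTCNNNGAA, present in 9.55% of promoters, had no match in the members. The motif GAGGAAGT, bound by the myeloid factor PU.1, was present in 3.69% of promoters and, among the members, only in that of Retnla. The CACCC box CCNCACCC, of the kind bound by KLF proteins, was present in 18.4% of promoters and, among the members, only in that of Il4ra, with 3 matches at positions -148, -83 and -48 from the gene start. A match is a match of letters and not a measured site of binding. The windows of Retnla and Il4ra are shown because these genes encode a classical STAT6 target and the receptor upstream of STAT6, with the matched bases in capitals and the plus strand read 5′ to 3′.
Retnla, STAT6 motif, chr16:48842454-48842483: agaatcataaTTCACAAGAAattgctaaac
Il4ra, CACCC box at -148, chr7:125552112-125552141: gcggacgcgtgGGGTGGGGcatgcaaataa
Il4ra, CACCC box at -83, chr7:125552177-125552206: gaaaatgagctGGGTGAGGggcggggcatg
Il4ra, CACCC box at -48, chr7:125552212-125552241: gaccgtgcacgGGGTGGGGcgtcgcatgta

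Expression is given as FPKM, the number of fragments scaled to transcript length and to the mapped fragments of the sample. Zbp1 itself, on chromosome 2 (GRCm38 chr2:173206612-173218959), had 86.0 and 62.0 FPKM in the siScr samples and 11.5 and 11.6 FPKM in the siZBP1 samples, which was 84.4% lower by the group means (limma log2 fold change -2.56 ± 0.16 SE, adjusted p = 0.00322). The samples had between 16003 and 16565 genes above 0, and the spacing of low values placed their relative depths at 1.39 and 1.87 for siScr and at 1.0 and 1.61 for siZBP1. Replicate samples shared 0 equal values above 0.

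The members ranged in expression from 0 in every sample (Retnla) to a mean above 96.0% of the genes above 0 (Folr2). Over all 4 samples the order of mean FPKM was Folr2, Mrc1, Il4ra, Klf4, Il10, Cd163, Clec10a, Arg1, Mgl2 and Retnla. The ranges over the samples overlapped for Folr2 and Mrc1, for Mrc1 and Il4ra, for Cd163 and Clec10a, for Arg1 and Mgl2 and for Mgl2 and Retnla, so those neighbours were not separate. A mean of at least 1 FPKM was reached by 5 members, 4 lay below 1 FPKM, and Retnla was listed at 0 in every sample. Mrc1 and Folr2 together made up 80.3% and 80.8% of the summed FPKM of the members in siScr and 80.4% and 81.3% in siZBP1, while the share between them shifted. Of the 8 members with both group means above 0, 3 (Mrc1, Il4ra and Clec10a) were over 1.5-fold higher in siZBP1 against 10.7% of all such genes, and 2 (Klf4 and Arg1) were over 1.5-fold lower against 13.8% of all such genes. Of the 5 members with a mean of at least 1 FPKM, 2 were over 1.5-fold higher (4.24% of such genes) and 1 was over 1.5-fold lower (8.73%). Across the samples, 4 members were higher in both siZBP1 samples than in either siScr sample (29.0% of 17788 genes above 0), 4 were lower in both (29.3%), and Il10 overlapped. Nothing is read from these counts, since the rule that chose the members used the same contrast.

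**Figure D1:**
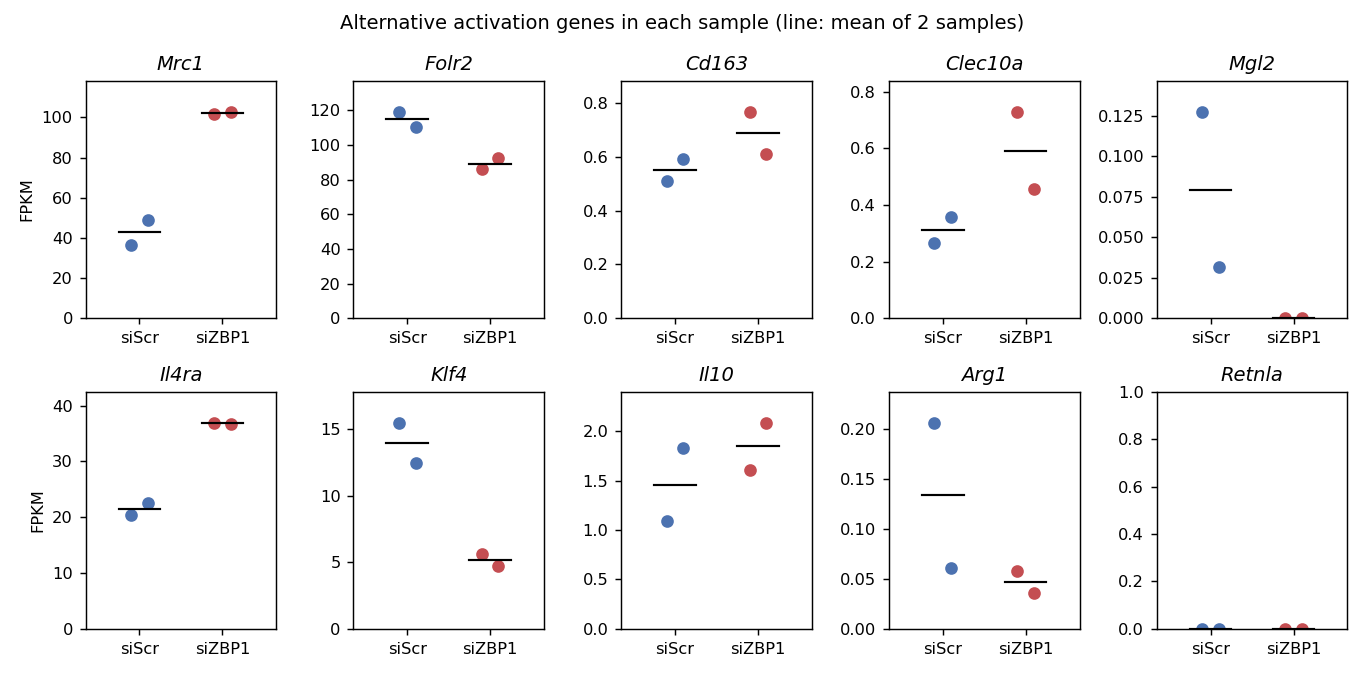
FPKM (vertical axis, a separate linear scale from 0 for each gene) of the 10 members in the siScr and siZBP1 samples, with 1 point per sample and a line at the mean of the 2 samples. Mrc1 and Il4ra lay higher and Folr2 and Klf4 lower in both siZBP1 samples, and Retnla lay at 0 throughout.

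Mrc1 encodes the mannose receptor, an endocytic lectin that clears mannose-bearing glycoproteins and collagen fragments. Its gene lies on chromosome 2 (GRCm38 chr2:14229414-14332023). The siScr samples had 36.5 and 48.9 FPKM and the siZBP1 samples 101.6 and 102.7 FPKM. The siZBP1 replicates were nearly equal, the siScr replicates differed by a factor of 1.34, and the groups were separated by a factor of at least 2.08. The group means were 42.7 ± 8.71 FPKM in siScr and 102.1 ± 0.792 FPKM in siZBP1 (SD, n = 2 each), a ratio of 2.39. Averaged over the samples, Mrc1 lay above 94.0% of the genes above 0.

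Mrc1 moved apart from the other receptors of its family. Mrc2 (Endo180), a collagen receptor of stromal cells, had 28.9 and 28.3 FPKM in siScr and 12.4 FPKM in both siZBP1 samples, and it fell (limma log2 fold change -1.15 ± 0.05 SE, adjusted p = 0.00219). Ly75 (DEC-205), an antigen uptake receptor of dendritic cells, fell as well, from 4.10 ± 0.295 to 1.11 ± 0.00781 FPKM (SD, n = 2 each; limma log2 fold change -1.27, adjusted p = 0.00470). Pla2r1, the remaining family member, stayed short of the threshold (limma log2 fold change -0.39, adjusted p = 0.0879). The ratio of Mrc1 to Mrc2 in a sample was 1.27 and 1.73 in siScr and 8.22 and 8.29 in siZBP1. The 2 mannose receptor genes were thus within a factor of 1.73 of each other in the control samples and far apart after depletion of Zbp1.

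Folr2 encodes folate receptor beta, a surface protein of tissue-resident macrophages that takes up folate, and lies on chromosome 7 (GRCm38 chr7:101839988-101857190). It had 118.9 and 110.5 FPKM in siScr and 86.3 and 92.2 FPKM in siZBP1. Both siZBP1 samples lay below both siScr samples. The means were 114.7 ± 5.99 and 89.2 ± 4.15 FPKM (SD, n = 2 each), a ratio of 0.778, which is within 1.5-fold. The order of the most abundant receptors was therefore exchanged, with a ratio of Mrc1 to Folr2 of 0.307 and 0.442 in siScr and 1.18 and 1.11 in siZBP1. Folr1, the related receptor of epithelia, stood near 1 FPKM and did not pass the threshold (limma log2 fold change 0.07, adjusted p = 0.821).

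The other scavenger and lectin genes were scarce. Cd163, the receptor for complexes of haemoglobin and haptoglobin, lies on chromosome 6 (GRCm38 chr6:124304636-124330529) and had 0.511 and 0.591 FPKM in siScr and 0.766 and 0.609 FPKM in siZBP1. Its siZBP1 samples were higher by as little as a factor of 1.03, so the groups were barely separate. Clec10a, a lectin for galactose and N-acetylgalactosamine on chromosome 11 (GRCm38 chr11:70166623-70170836), had 0.264 and 0.356 FPKM in siScr and 0.728 and 0.455 FPKM in siZBP1, a ratio of the means of 1.91 at a level below 1 FPKM. Mgl2, its neighbouring paralogue 29080 bases away (GRCm38 chr11:70130125-70137542), had 0.127 and 0.0315 FPKM in siScr and 0 in both siZBP1 samples. From the spacing of low values the Mgl2 readings correspond to 3 and 1 fragments in siScr, and a count of 0 in siZBP1 allows a ratio of up to 1.89 (95% exact interval, counting error only). Clec10a and Mgl2 are close in sequence, and fragments from one may have been assigned to the other, so their separate values are uncertain.

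Il4ra, the signalling chain shared by the receptors for IL-4 and IL-13, lies on chromosome 7 (GRCm38 chr7:125552271-125579474). It had 20.5 and 22.6 FPKM in siScr and 36.9 and 36.8 FPKM in siZBP1. Replicates were close in both groups, and the groups were separated by a factor of at least 1.63. The means were 21.5 ± 1.53 and 36.9 ± 0.135 FPKM (SD, n = 2 each), a ratio of 1.71. Neither of the chains that pair with it passed the limma threshold, though Il13ra1 was higher in both siZBP1 samples than in either siScr sample. Il2rg, the common gamma chain, had 43.9 ± 0.881 FPKM in siScr and 46.3 ± 3.38 FPKM in siZBP1 (limma adjusted p = 0.430), and Il13ra1 had 12.9 ± 0.796 and 15.4 ± 0.891 FPKM (limma adjusted p = 0.0787; SD, n = 2 each). The ratio of Il4ra to Il2rg in a sample was 0.473 and 0.508 in siScr and 0.841 and 0.754 in siZBP1.

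Downstream of the receptors, 26 genes of IL-4, IL-13 and IL-10 signalling were examined, of which 20 had a mean of at least 1 FPKM and could be tested. The ligand genes Il4 and Il13 were listed at 0 in all 4 samples. By limma, 5 genes rose and 1 fell, where 13.5% and 14.8% of the 11959 genes tested did so. The same shares apply to the limma counts of every list below. The median log2 fold change of the list was 0.09, beside 0.0045 over all genes tested. The kinase gene Jak3, whose product is bound to the common gamma chain, rose the most, from 5.36 ± 0.150 to 11.4 ± 0.430 FPKM (SD, n = 2 each; limma log2 fold change 0.97, adjusted p = 0.00373). Bcl3, a nuclear partner of NF-κB induced by IL-10, rose by a log2 fold change of 0.64 (limma adjusted p = 0.0106), and Il10ra, the ligand-binding chain of the IL-10 receptor, by 0.50 (limma adjusted p = 0.0151). Sbno2 and Stat3, both in the IL-10 arm and named here only to complete the count, rose by 0.38 and 0.24. Pparg, a nuclear receptor of alternative activation and of fat cells, fell from 20.9 ± 2.65 to 13.7 ± 0.0293 FPKM (SD, n = 2 each; limma log2 fold change -0.57, adjusted p = 0.0181). Stat6 had 51.5 and 48.5 FPKM in siScr and 54.7 and 54.4 FPKM in siZBP1 and did not pass the threshold (limma log2 fold change 0.12, adjusted p = 0.125). The number of calls depended on the samples in the fit. Over the whole table it fell steeply without either siZBP1 sample, and less so without siScr replicate 1. A group left with 1 sample takes its spread from the remaining group.

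**Figure D2:**
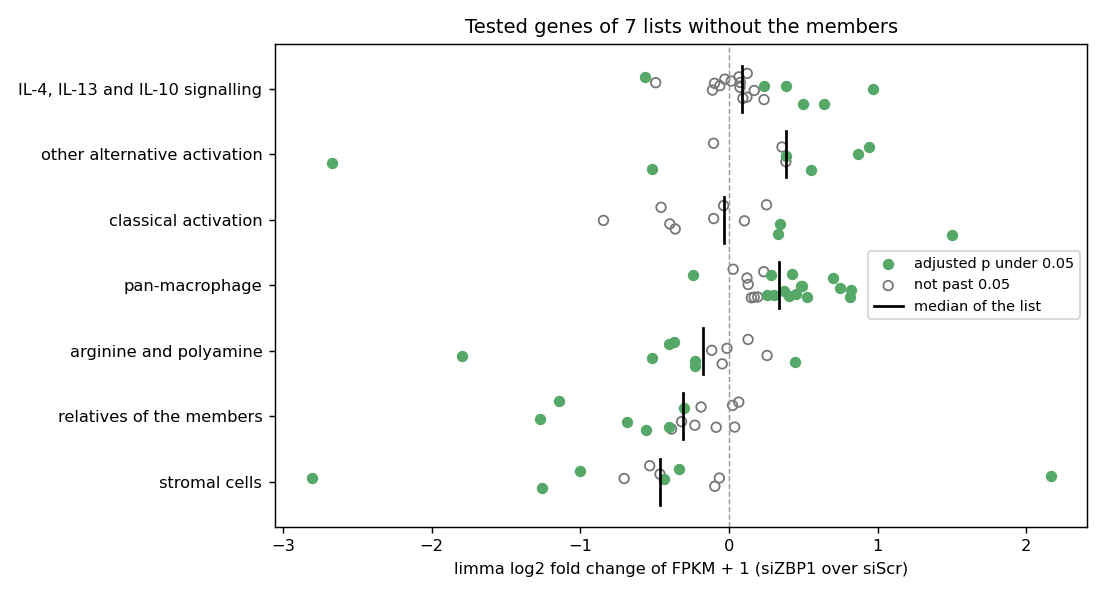
Limma log2 fold change of FPKM + 1, siZBP1 over siScr (horizontal axis), for the tested genes of 7 lists that exclude the members (rows), with filled points for an adjusted p under 0.05, open points for the rest and a bar at the median of each list. The medians run from -0.46 for the stromal genes to 0.38 for the other genes of alternative activation.

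Klf4 encodes a zinc finger transcription factor that cooperates with STAT6 in macrophages and is also made by mesenchymal and epithelial cells. It lies on chromosome 4 (GRCm38 chr4:55527137-55532475). The siScr samples had 15.5 and 12.5 FPKM and the siZBP1 samples 5.64 and 4.75 FPKM. The higher siZBP1 sample lay far below the lower siScr sample. The means were 14.0 ± 2.12 and 5.19 ± 0.631 FPKM (SD, n = 2 each), 2.70-fold lower in siZBP1. Of 13 other KLF genes in the list, 10 were tested, and by limma 4 fell and 0 rose (5 and 0 at an unadjusted p under 0.05). Klf2, a quiescence factor of myeloid and endothelial cells, fell by 0.69 on the log2 scale (limma adjusted p = 0.00923) and Klf7 by 0.55 (limma adjusted p = 0.0139), and Klf6 and Klf9 made up the rest with 0.40 and 0.30. The ratio of Klf4 to Klf2 was 1.43 and 1.26 in siScr and 0.973 and 0.744 in siZBP1, so the difference of Klf4 was the larger of the pair. Over all 27 relatives of the members, 14 were tested, of which 6 fell and 0 rose by limma (8 and 0 at an unadjusted p under 0.05), and the median log2 fold change was -0.31.

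**Figure D3:**
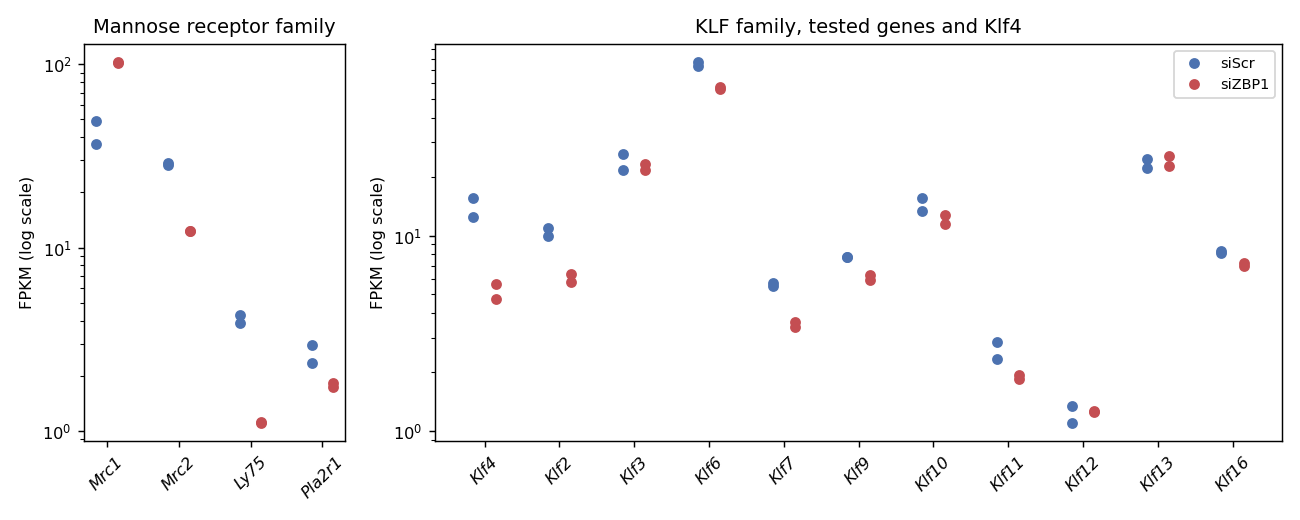
FPKM on a log axis (vertical) of the mannose receptor family (left) and of Klf4 with the tested KLF genes (right) in the siScr and siZBP1 samples, 1 point per sample. Mrc1 was higher in siZBP1 while Mrc2 and Ly75 were lower, and Klf4, Klf2, Klf6, Klf7 and Klf9 lay lower in both siZBP1 samples.

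Il10, the gene of the cytokine that restrains inflammatory macrophages, lies on chromosome 1 (GRCm38 chr1:131019845-131024970). It had 1.09 and 1.83 FPKM in siScr and 1.60 and 2.08 FPKM in siZBP1. The lower siZBP1 sample lay between the siScr samples, so no difference was seen beyond the spread between replicates.

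The effector genes were at the limit of detection. Arg1, arginase 1, which splits arginine into ornithine and urea, lies on chromosome 10 (GRCm38 chr10:24915207-24927470) and had 0.206 and 0.0610 FPKM in siScr and 0.0575 and 0.0357 FPKM in siZBP1. These readings correspond to 5 and 2 fragments in siScr and 1 and 1 in siZBP1, which came out whole within 1.0%, and the ratio per unit of depth was 0.357 with a 95% exact interval from 0.0362 to 1.87 that covers counting error only. A difference of Arg1 was therefore not detectable at this depth, and siScr replicate 1 alone carried most of it, with a ratio of the FPKM means of 0.349 over all samples and of 0.764 without that sample. Retnla, the gene of the secreted protein RELM alpha (GRCm38 chr16:48842609-48844461), was listed at 0 in all 4 samples, as were its relatives Retn, Retnlb and Retnlg. Beside Arg1, Retnla, Il4 and Il13 at or near 0, only some of the members were abundant in these cultures, chiefly Mrc1, Folr2, Il4ra and Klf4. Which cells of the culture expressed them was not measured.

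Arg2, the mitochondrial arginase, was also below 1 FPKM, with 0.298 ± 0.0635 in siScr and 0.706 ± 0.192 in siZBP1 (SD, n = 2 each), and was not tested. Of 12 tested genes of arginine and polyamine metabolism, 6 fell and 1 rose by limma, where 14.8% and 13.5% of all genes tested did so. The median log2 fold change was -0.17. Slc7a1, the main carrier of arginine into cells, fell from 16.0 ± 1.73 to 3.89 ± 0.131 FPKM (SD, n = 2 each; limma log2 fold change -1.80, adjusted p = 0.00264). Ass1, which makes the precursor for arginine synthesis, fell by 0.52 (limma adjusted p = 0.0454) and Sms, spermine synthase, by 0.40 (limma adjusted p = 0.0242), while Smox, spermine oxidase, rose by 0.44 on the log2 scale (limma adjusted p = 0.0125).

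A further 22 genes used as signs of alternative activation gave 9 that could be tested, of which 4 rose and 2 fell, with a median log2 fold change of 0.38. Tgm2, a transglutaminase that crosslinks proteins, rose from 60.2 ± 6.09 to 116.2 ± 2.46 FPKM (SD, n = 2 each; limma log2 fold change 0.94, adjusted p = 0.00463). Cd200r1, an inhibitory receptor, rose by 0.87 (limma adjusted p = 0.0117) and Msr1, a scavenger receptor, by 0.55 (limma adjusted p = 0.0134), and Stab1, a scavenger receptor named only to complete the count, by 0.38. Cbr2, a carbonyl reductase, had the largest change of the list in the other direction and fell from 38.9 ± 3.79 to 5.25 ± 0.0338 FPKM (SD, n = 2 each; limma log2 fold change -2.67 ± 0.08 SE, adjusted p = 0.00150). Mmp12, macrophage elastase, fell by 0.52. Within the list as among the members, genes in both directions stood side by side, with Cbr2 and Folr2 lower and Tgm2 and Mrc1 higher.

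Genes of classical activation, the state driven by interferon gamma and bacterial products, were examined for comparison. Of 11 tested genes of a list of 22, 3 rose and 0 fell by limma (3 and 1 at an unadjusted p under 0.05), and the median log2 fold change was -0.04. Il1b rose from 0.867 ± 0.217 to 4.43 ± 1.88 FPKM (SD, n = 2 each; limma adjusted p = 0.0210), 5.11-fold by the group means, with unequal siZBP1 samples at 3.10 and 5.77 FPKM. The chemokine genes Ccl5 and Cxcl9 and the prostaglandin synthase gene Ptgs2 had log2 fold changes of -0.84, -0.46 and -0.40 that missed the threshold (limma adjusted p = 0.0617, 0.120 and 0.123). Cxcl10 and Cd86, named to complete the count, rose by 0.35 and 0.33. Nos2, the inducible nitric oxide synthase that competes with arginase for arginine, was near 0, with 0.0678 ± 0.00578 FPKM in siScr and 0.0720 ± 0.0184 FPKM in siZBP1 (SD, n = 2 each). Of the untested genes below 1 FPKM, Fpr2, Gpr18, Il6, Cd38 and Acod1 were higher in both siZBP1 samples. Their ratios of the means were 3.32, 2.34, 2.10, 1.77 and 1.73. No untested gene of the list was lower in both siZBP1 samples. These genes were named after their values were seen, and 29.0% of all genes above 0 were likewise higher.

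Most pan-macrophage genes rose after depletion of Zbp1. Of the 12 stromal genes, 11 had a lower mean in siZBP1 and 1 (Nt5e) a higher mean. All 22 pan-macrophage genes had a mean of at least 1 FPKM, and their summed FPKM was 11016 to 12151 in siScr and 16548 to 17377 in siZBP1, a ratio of 1.46. Much of the difference of this sum came from Lyz2, at 3230 ± 589 FPKM in siScr and 5636 ± 332 FPKM in siZBP1 (SD, n = 2 each). By limma 14 of the 22 rose and 1 (Cybb) fell, the latter call being lost with quantile normalization, with a median log2 fold change of 0.33. The lysozyme genes Lyz1 and Lyz2 rose by 0.82 and 0.81, C1qa by 0.74, Cx3cr1 by 0.70, Csf1r by 0.28 and Cd68 by 0.26, while Ptprc and Adgre1 did not pass (limma adjusted p = 0.0744 and 0.165). The 12 stromal genes, of which 11 reached a mean of 1 FPKM, summed to 4693 to 5621 FPKM in siScr and 3230 to 3270 FPKM in siZBP1, a ratio of 0.630. Of these 11 tested genes, 5 fell and 1 rose by limma (7 and 1 at an unadjusted p under 0.05). Much of the difference of the sum came from the collagen gene Col1a1, at 2793 ± 386.1 FPKM in siScr and lower in siZBP1 at 1160 ± 44.6 FPKM (SD, n = 2 each; limma adjusted p = 0.00480). The chemokine gene Cxcl12 fell by 2.81 on the log2 scale and the transcription factor gene Prrx1 by 1.00 (limma adjusted p = 0.00210 and 0.00520), while Nt5e, the ectonucleotidase CD73, rose from 4.11 ± 1.94 to 21.0 ± 0.373 FPKM (SD, n = 2 each; limma adjusted p = 0.00954). Col1a2, Thy1 and Vcam1, named after their values were seen, overlapped between the groups. In whole cultures, more or fewer cells of a type and more or less RNA per cell cannot be told apart. Markers of dendritic cells, granulocytes, lymphocytes and endothelial and red cells were low. Dendritic cell genes (Flt3 at 0) summed to 4.97 to 5.92 FPKM in siScr and 7.74 to 7.98 FPKM in siZBP1, mostly from Itgax. Granulocyte genes (S100a9, Elane, Mpo, Ltf, Epx and Prg2 at 0) summed to 2.32 to 3.39 and 2.58 to 6.95 FPKM, with S100a8 at 4.52 FPKM in siZBP1 replicate 2. Lymphocyte genes (Cd3g and Ncr1 among those at 0) summed to 4.18 to 4.44 and 5.87 to 5.92 FPKM, mostly from Cd4. Endothelial and red cell genes (Hbb-bs at 0) summed to 3.66 to 4.35 and 3.86 to 4.36 FPKM. Osteoclast markers were uneven, with summed FPKM of 96.8 to 97.3 in siScr and 105.0 to 108.4 in siZBP1. Only 3 of the 7 genes reached a mean of 1 FPKM. Dcstamp, Ocstamp and Mmp9 had means of 0.411, 0.210 and 0.194 FPKM. Calcr had 0.0239 FPKM in siScr replicate 1 and 0 in the other samples. Most of the sum came from Atp6v0d2 and Ctsk. Atp6v0d2, a proton pump subunit, had 51.9 ± 0.302 FPKM in siScr and 76.9 ± 4.10 FPKM in siZBP1. Ctsk, cathepsin K, had 42.3 ± 1.12 and 27.5 ± 1.42 FPKM (SD, n = 2 each). These osteoclast genes were named after their values were seen.

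The members were therefore also expressed as a percent of the summed FPKM of the 22 pan-macrophage genes in the same sample. On this denominator Mrc1 was 0.332% and 0.402% in siScr and 0.585% and 0.621% in siZBP1, a ratio of 1.64. The ratio of Mrc1 was 1.77 without the most abundant gene of the list and 1.87 against the geometric mean of the list. Folr2 was 1.08% and 0.909% in siScr and 0.497% and 0.557% in siZBP1, a ratio of 0.530, further from 1 than the ratio of 0.778 in FPKM. This ratio of Folr2 depended on the denominator and the samples. It was 0.573 without the most abundant gene of the list and 0.606 against the geometric mean of the list. With 1 sample left out it was 0.488 to 0.579. Il4ra was 0.186% in both siScr samples and 0.213% and 0.222% in siZBP1, a ratio of 1.17. The ratio of Il4ra also depended on the denominator and was 1.26 without Lyz2, the most abundant gene of the list, and 1.34 against the geometric mean of the list. Klf4 was 0.141% and 0.103% in siScr and 0.0325% and 0.0287% in siZBP1, a ratio of 0.251. The direction of Mrc1, Folr2, Il4ra and Klf4 was the same on both scales, while the ratios of Il10 and Cd163 changed direction. The ratio of Il10 was 1.26 in FPKM and 0.876 on this denominator, with overlapping groups on both. On this denominator it reached 1.11 without siScr replicate 2 and 1.01 without siZBP1 replicate 1. The ratio of Cd163 was 1.25 in FPKM and 0.851 on this denominator, and 0.973 against the geometric mean of the list. Against the single macrophage gene Csf1r, the ratio of Mrc1 was 0.0782 and 0.104 in siScr and 0.174 and 0.184 in siZBP1, and the ratio of Folr2 was 0.255 and 0.235 in siScr and 0.148 and 0.165 in siZBP1. The part of the macrophage and stromal genes in these differences was not tested.

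**Figure D4:**
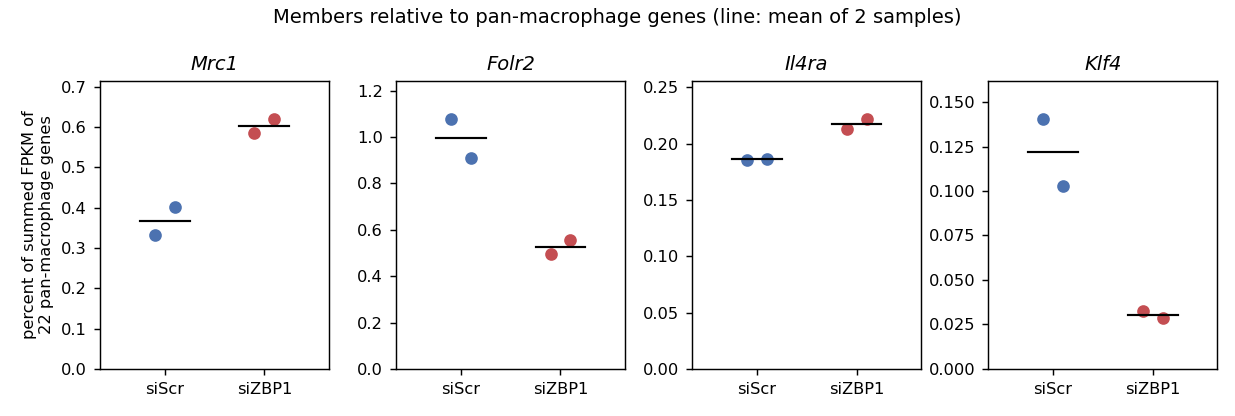
Mrc1, Folr2, Il4ra and Klf4 as a percent of the summed FPKM of 22 pan-macrophage genes (vertical axis, linear from 0) in each siScr and siZBP1 sample, with a line at the mean of the 2 samples. Mrc1 and Il4ra lay higher and Folr2 and Klf4 lower in both siZBP1 samples.

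The genes whose profile over the 4 samples was most like that of Mrc1, by the root mean square distance of centred log2(FPKM + 1) among genes with a mean of at least 1 FPKM, were Bpgm (distance 0.0249), Ccbe1 (0.0425), Masp1 (0.0465), P2ry13 (0.0799) and Csgalnact1 (0.0806). None of the other members was among them. The distance takes in the size of a difference as well as its direction. Among the other members with a mean of at least 1 FPKM, the ratio nearest to the 2.39 of Mrc1 was 1.71 for Il4ra. Their absence therefore adds nothing to the ratios already given.

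The words complementary to the seeds of the published siRNAs were also looked for in the transcripts of the members, since which siRNA was used for RNA-seq is not given in the sources used here. The word of siZBP1-1, CAGCCAA, was present in the coding transcripts of 34.6% of 10960 tested genes and of 1 member, Clec10a (1 of the 26 coding transcripts of the members). The word of siZBP1-2, TCCGGGA, was present in 19.2% of these genes and in 3 members, Cd163, Mgl2 and Clec10a (7 of the 26 transcripts). Neither word was present in a coding transcript of Mrc1, Folr2, Il4ra or Klf4.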

How the data were processed

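RNA-seq libraries of 4 mBMSC samples were made by the authors with the TruSeq kit and mapped to mm10 with TopHat. The authors deposited FPKM per gene and sample, extracted with HTSeq by the methods, with Cufflinks also named in the submitters' processing notes. The annotation, strand setting and read totals were not given in the sources used here.

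From the deposited FPKM, group means, SDs and ratios were computed for the members. Other genes were tested with limma 3.58.1 in R 4.3.3, applied to log2(FPKM + 1) with its trend option for the variance, for genes with a mean of at least 1 FPKM, two-sided, with Benjamini-Hochberg adjustment over 11959 genes and a threshold of 0.05. Fold changes on this scale understate those of low genes. Relative depth was the spacing of low values, with fragments called whole within 2.5%. The fit was tested on simulated data. The members and lists were chosen with earlier results of these data known. Named genes were the members, Zbp1, a short set of fixed genes (Csf1r, Adgre1, Cd68, Ptprc, Stat6, Il4, Il13, Nos2, Arg2 and Mrc2), the 4 largest changes of each list and the 5 profiles nearest to Mrc1, and other genes were named after their values were seen. Amd1, Ly6g and Hba-a1 were not matched. Groups came from the sample titles. Alternatives covered the pseudocount, filter, normalization, variance trend, replicate block and leaving out each sample.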

Additional observations from a re-analysis of the deposited data

How the results depend on the processing

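Of 64 alternative values of the members' ratios, 57 moved by less than the replicate spread, 7 moved by more and 0 reversed. Of 48 relative to pan-macrophage genes, 34 moved by less than the replicate spread, 12 moved by more and 2 reversed. All alternative values of Folr2 were among those that moved by more. Both reversals were of Il10, from 0.876 to 1.11 without siScr replicate 2 and 1.01 without siZBP1 replicate 1 (0.724 to 1.11 over the samples left out). Members over 1.5-fold lower numbered 1 instead of 2 when 1 was added to each mean. Leaving out 1 sample at a time gave 1 to 2 members lower, and 0 to 2 members over 1.5-fold higher relative to pan-macrophage genes.

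Calls by limma depended most on the siZBP1 samples and less on siScr replicate 1. Leaving out 1 sample gave 22 to 1257 genes higher and 49 to 1505 lower. Within the lists it gave 0 to 4 higher and 0 to 2 lower for signalling, 0 to 4 and 1 to 2 for other alternative activation, 0 to 1 and 0 to 1 for classical activation, 0 to 14 and 0 to 0 for pan-macrophage genes, 0 to 1 and 0 to 3 for arginine and polyamine genes, 0 to 0 and 1 to 5 for relatives, and 0 to 1 and 1 to 8 for stromal genes. A group of 1 sample takes its spread from the remaining group. Signalling genes lower numbered 2 with a pseudocount of 0.1, a minimum of 5 FPKM or the replicate block. Pan-macrophage genes lower numbered 0 without the filter, with quantile normalization and without the trend. Arginine genes lower numbered 3 without the trend, and relatives lower 3 at a minimum of 5 FPKM.

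Replicate differences of the groups were uncorrelated (-0.063 over 11959 genes). With 1 difference per group, this cannot show whether samples with the same replicate number shared an animal, culture or batch. With the replicate block, 1465 genes were higher and 1654 lower, classical genes lower numbered 3 and arginine genes higher 2. FPKM gives no read totals, so precision of the low members rests on estimated fragments.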
